A study of Gelatoporia subvermispora and Trametes versicolor with 24 samples.

Results

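The laccases of Gelatoporia subvermispora are described here as the 7 genes whose identifier starts with Cslcs, Cslcs1 to Cslcs7, out of 12313 genes counted in this fungus and 26883 in the whole series. They were chosen by symbol, with earlier results of these data known. The count tables pair no gene with a product, so that these genes encode laccases rests on the symbol. The series measured RNA from 2 white-rot fungi, G. subvermispora and Trametes versicolor, and concerns how such fungi break down methoxylated aromatic compounds related to lignin. The flasks used here are of G. subvermispora strain FP-105752, a monokaryon, that is, mycelium with nuclei of a single type. All of them stood for 12 days at 28 °C in medium with 5 g/L cellobiose and were then supplied with ascorbic acid at 5 mM and α-tocopherol at 1 mM, so these additions were shared by the water and the vanillate group. From 30 min later, 3 flasks were given 2 pulses of vanillate, the anion of vanillic acid, to 2 mM, and 3 were given the same volume of water, with 12 h between pulses and harvest on day 13. For T. versicolor strain FP-101664, also a monokaryon, 3 vanillate and 3 water flasks were treated in the same way after 5 days. Each group is a single strain of its fungus, and no source used here says that its flasks had separate inocula. The p-values therefore speak only of flask-to-flask spread, which may be technical.

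Laccases are secreted copper enzymes that take electrons from phenols and pass them to oxygen, which becomes water. White-rot fungi usually carry several laccase genes, and in many of these fungi copper and aromatic compounds are known to alter the level of some of them. G. subvermispora is known for removing lignin from wood ahead of cellulose and for secreting manganese peroxidases together with laccases. What each of the 7 Cslcs genes does on its own is not told by the files or labels.

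Every flask was sequenced as 2 libraries, which were summed. A chi-square of their counts over genes, divided by its degrees of freedom, came to 1.01 to 1.06 within the 6 flasks, against 2.88 to 8.65 in 24 pairs of libraries from different flasks of a group. Flask totals were 6119420 to 12333618 gene counts. Genes took 76.4% to 79.9% of reads in the water flasks and 70.0% to 76.5% in the vanillate flasks. Reads set aside for low alignment quality made up 4.04% to 5.57% with water and 5.98% to 12.3% with vanillate, the highest share being in vanillate replicate 1. This class did not overlap between the groups. Whether it holds reads that match several similar genes is not stated, and its part in the values of a gene family was not tested. No flask listed any read as aligned to several places, so reads shared by near-identical laccase genes may have been lost, and the level of each gene is uncertain to that extent.

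Levels are given in CPM, counts per 1000000 gene counts of a flask after TMM scaling, a correction for differences in composition between flasks. Gene lengths were not used, so CPM compares a gene between flasks, and shares of counts between genes are not levels per length. In whole mycelium, fewer hyphae expressing a gene and less RNA per hypha cannot be told apart. All 7 laccases had at least 23 counts in every flask and all passed the filter on low counts.

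With water, Cslcs1 took most of the family's counts, followed by Cslcs2 and Cslcs6. Cslcs1 accounted for 65.5%, 50.9% and 53.2% of laccase counts in water replicates 1, 2 and 3. Cslcs2 held 22.0%, 22.3% and 22.7%, a share that was nearly the same in each water flask. Cslcs6 held 8.41%, 18.2% and 16.7%, and was lowest in the flask where Cslcs1 was highest. The other 4 genes each took between 0.215% and 3.73% of the family in any water flask. In this order by counts Cslcs5 came next, then Cslcs7 and Cslcs4, whose flasks overlapped and which did not differ beyond their spread, and Cslcs3 was last. For Cslcs1 in water replicate 1 the exact (Clopper-Pearson) 95% interval of the share was 64.6% to 66.4%. For the minor members the counting error was larger relative to the share: Cslcs3 in the same flask held 0.215% with an interval of 0.136% to 0.322%. Reads carry no molecular identifiers, so such intervals cover counting error only.

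With vanillate the family was more strongly weighted to Cslcs1. It accounted for 75.7%, 81.7% and 84.9% of laccase counts in vanillate replicates 1, 2 and 3, a mean of 80.8% ± 4.65 (SD, n = 3) against 56.5% ± 7.84 with water, and every vanillate flask lay above every water flask. Cslcs2 held 6.91%, 5.68% and 6.07%, or 6.22% ± 0.629 against 22.3% ± 0.327 with water, again with no overlap. Cslcs6 held 9.97%, 7.01% and 5.23%, and these shares overlapped with those in water. The share of Cslcs5 was 2.70% ± 1.15 with water and 1.07% ± 0.314 with vanillate, without overlap, and those of Cslcs3, Cslcs4 and Cslcs7 overlapped. In the order by counts Cslcs7 moved above Cslcs4 and Cslcs5, while Cslcs6 and Cslcs2 overlapped, as did Cslcs4 and Cslcs5. The number of equally used genes that would give the same evenness, computed as 1 over the sum of squared shares, was 2.06 to 2.90 with water and 1.37 to 1.69 with vanillate.

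**Figure D1:**
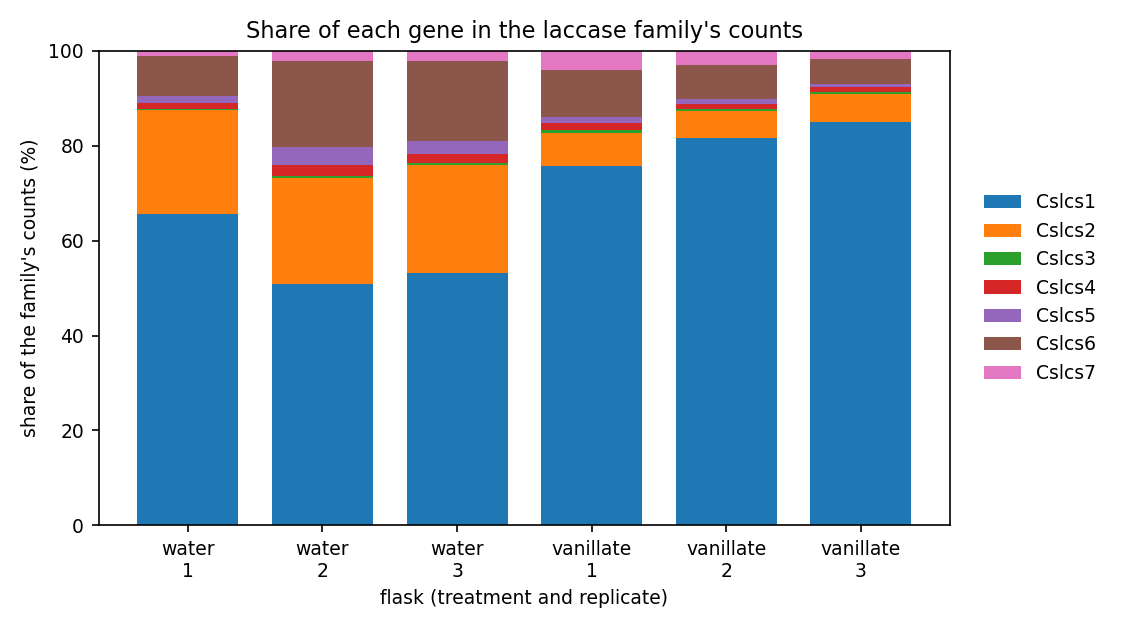
Stacked bars show the percentage of the summed counts of the 7 laccases that each gene took, for each of the 3 water and 3 vanillate flasks. Cslcs1 fills 50.9% to 65.5% of the water bars and 75.7% to 84.9% of the vanillate bars, while Cslcs2 shrinks from about 22.3% to 6.22%.

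The summed level of the family overlapped between the groups. It was 1206, 655.1 and 745.7 CPM in water replicates 1, 2 and 3 and 991.5, 1299 and 1445 CPM in vanillate replicates 1, 2 and 3. Water replicate 1 thus stood above vanillate replicate 1. The means were 868.8 ± 295.2 and 1245 ± 231.5 CPM (SD, n = 3), and the laccases made up 0.0907% ± 0.0309 and 0.119% ± 0.0230 of all gene counts. Without Cslcs1, the sum of the other 6 genes was 415.9, 321.3 and 349.2 CPM with water and 240.7, 237.8 and 218.3 CPM with vanillate, so that here all vanillate flasks were lower. No p is given for a sum over the members.

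Between treatments the genes were tested with edgeR's quasi-likelihood test over all 10318 genes that passed the filter, two-sided, and a call needed an adjusted p (Benjamini-Hochberg) under 0.05. Of the 7 laccases 2 rose, Cslcs3 and Cslcs7, and 3 fell, Cslcs2, Cslcs5 and Cslcs6. Cslcs1 and Cslcs4 did not pass. Over all genes tested 25.5% were called higher and 25.9% lower, together 51.4%, so that a family of this size with calls in both directions is near the background. Of the called laccases, 2 changed at least 2-fold, Cslcs2 and Cslcs7, where 7.40% of all genes did. The median log2 fold change was -0.13 over the 7 laccases and -0.01 over all genes, and the family ran from -1.33 to 1.24. The groups of flasks did not overlap in 5 of the 7, against 59.2% of all genes.

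**Figure D2:**
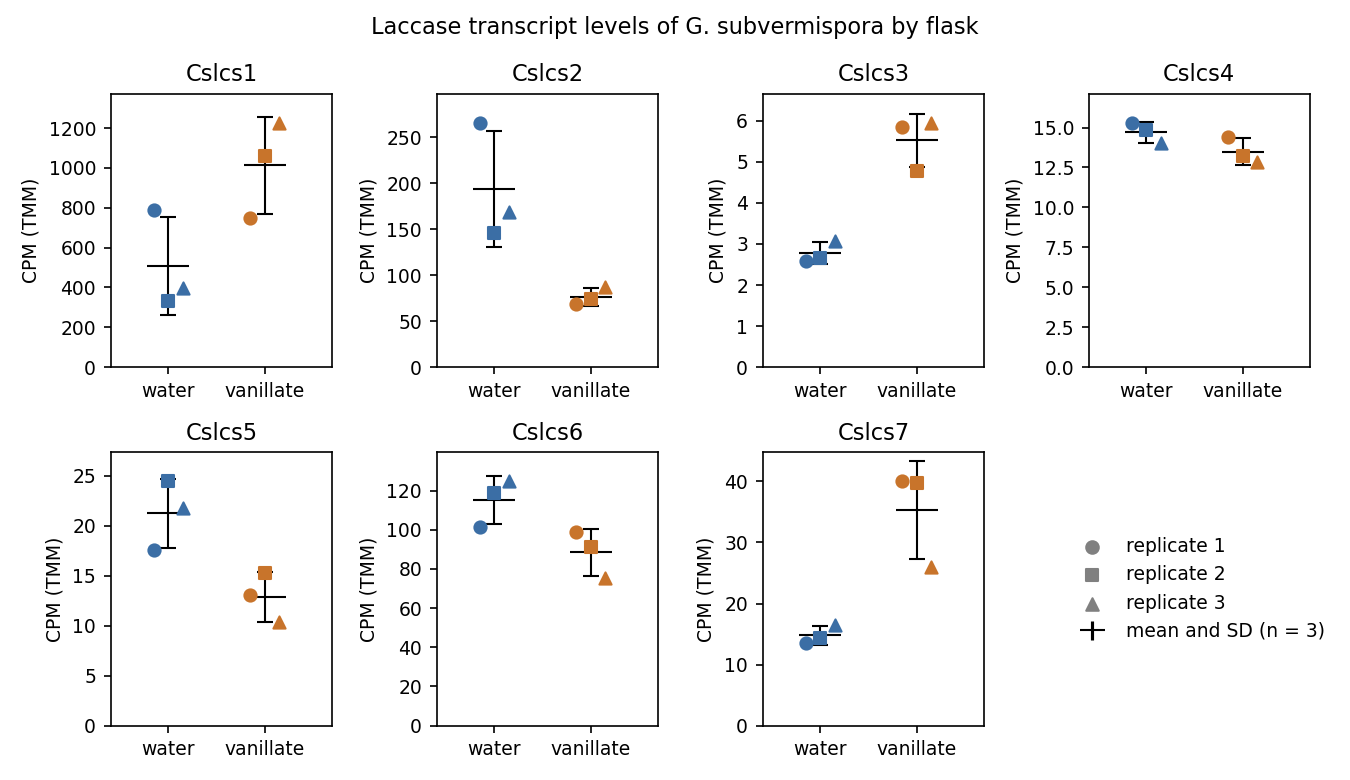
Each panel shows 1 laccase, with the level in CPM on a linear axis from 0, points for the 3 water (blue) and 3 vanillate (orange) flasks, and bars for the mean and SD. The flasks separate in 5 panels, with Cslcs3 and Cslcs7 higher and Cslcs2, Cslcs5 and Cslcs6 lower with vanillate, and overlap for Cslcs1 and Cslcs4.

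Cslcs7 had the largest rise. Its level was 13.6, 14.3 and 16.5 CPM in water replicates 1, 2 and 3 and 40.0, 39.8 and 26.0 CPM in vanillate replicates 1, 2 and 3. All vanillate flasks were above all water flasks, and vanillate replicate 3 was the lowest of its group. The log2 fold change was 1.24 (SE 0.17), a 2.36-fold rise with an adjusted p of 0.000126, on 416 counts with water and 949 with vanillate. The SE was derived from the test, as the size of the log2 fold change over the root of F. Across all alternative settings and with any flask left out, the log2 fold change stayed between 1.11 and 1.43 and the gene was called.

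Cslcs3, the laccase with the fewest counts, rose as well. It stood at 2.59, 2.66 and 3.08 CPM with water and at 5.84, 4.77 and 5.95 CPM with vanillate, without overlap. The log2 fold change was 0.97 (SE 0.20, adjusted p = 0.00104). These levels rest on 23, 24 and 31 counts per water flask and 34, 56 and 57 per vanillate flask. Counting alone would give a coefficient of variation (CV) of 19.8% between the water flasks, and the observed CV was 9.60%, so the SE may be too small at this depth. The counts of the 2 libraries of a flask differed by a ratio of 0.714 to 1.04 in this gene after scaling to library totals.

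Cslcs2 had the largest fall. It stood at 265.5, 146.2 and 169.1 CPM with water and at 68.5, 73.8 and 87.7 CPM with vanillate. The highest vanillate flask lay below the lowest water flask, and water replicate 1 was well above the other 2 water flasks. The log2 fold change was -1.33 (SE 0.28, adjusted p = 0.0143), so that the level with water was 2.51 times that with vanillate. The fall did not pass without vanillate replicate 2 (log2 fold change -1.30, adjusted p = 0.0524). Without water replicate 1 it was -1.04 with an adjusted p of 7.62e-06.

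Cslcs5 and Cslcs6 fell by smaller amounts. Cslcs5 was at 17.5, 24.5 and 21.7 CPM with water and 13.0, 15.2 and 10.3 CPM with vanillate (log2 fold change -0.72, SE 0.16, adjusted p = 0.00204). Cslcs6 was at 101.3, 119.0 and 124.7 CPM with water and 98.9, 91.1 and 75.5 CPM with vanillate (log2 fold change -0.39, SE 0.10, adjusted p = 0.0103). For both genes the groups did not overlap, but water replicate 1 of Cslcs6 and vanillate replicate 1 were close to each other. Both were called under every alternative setting, with log2 fold changes of -0.89 to -0.57 for Cslcs5 and -0.51 to -0.28 for Cslcs6.

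Cslcs1 had a larger mean with vanillate but was not called. Its level was 789.7, 333.7 and 396.5 CPM in water replicates 1, 2 and 3 and 750.8, 1061 and 1227 CPM in vanillate replicates 1, 2 and 3. Water replicate 1 was above vanillate replicate 1, and this was the overlap between the groups. The log2 fold change was 1.00 (SE 0.43), with a 95% interval of -0.14 to 2.15 and an adjusted p of 0.121. The interval takes in no change as well as a rise of over 4-fold. Without water replicate 1 the log2 fold change was 1.47 and the adjusted p 0.0116, and in all other alternatives the gene was not called, with log2 fold changes from 0.77 to 1.18.

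Cslcs4 was the most even member, with a CV between flasks of 4.45% with water and 6.16% with vanillate. Counting alone would give 8.55% and 9.40%, so its SE may be too small. It stood at 15.3, 14.8 and 14.0 CPM with water and 14.4, 13.2 and 12.8 CPM with vanillate. The groups overlapped, and the log2 fold change was -0.13 (SE 0.12, 95% interval -0.39 to 0.12, adjusted p = 0.367). With the first library of each flask alone the value was 0.02 and no direction can be given.

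**Figure D3:**
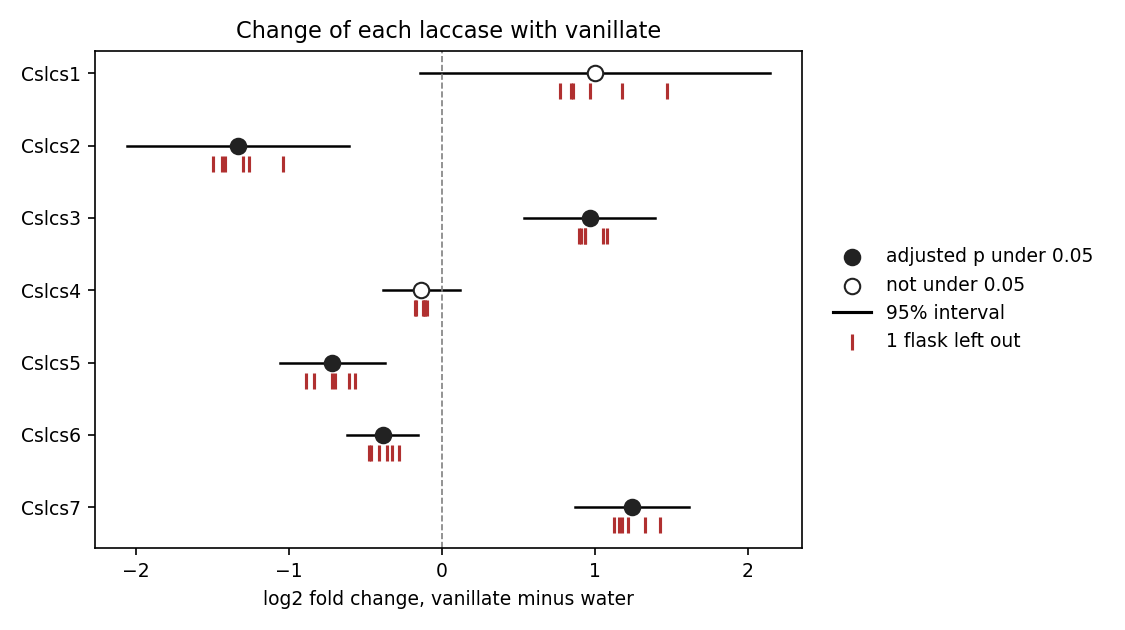
The log2 fold change of each laccase, vanillate minus water, is plotted with its 95% interval (line), filled circles for an adjusted p under 0.05, open circles otherwise, and red ticks for the 6 values with 1 flask left out. The interval of Cslcs1 is the widest, from -0.14 to 2.15, and those of Cslcs1 and Cslcs4 cross 0.

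The laccases differed in how much they varied between flasks of the same treatment. The CV of Cslcs1 was 48.8% with water and 23.8% with vanillate, where the median over all genes tested was 7.82% and 6.84%. Counting alone would give Cslcs1 1.55% and 1.15%. Cslcs2 had a CV of 32.7% with water and 12.9% with vanillate. In edgeR's biological coefficient of variation (BCV), an estimate of the spread between flasks beyond counting error, Cslcs1 had 0.354 and Cslcs2 0.224, or 4.26 and 3.29 times the trend for genes of their level. These placed Cslcs1 at percentile 99.8 and Cslcs2 at percentile 99.2 of all genes. Much of this spread came with water replicate 1, and without it, a setting chosen after seeing the data, the CV with water was 12.0% for Cslcs1 and 10.1% for Cslcs2, where the median of all genes was 5.67%. The BCV was then 2.45 times the trend for Cslcs1, at percentile 99.0, and 1.33 times for Cslcs2, at percentile 75.2. Cslcs7, Cslcs6 and Cslcs5 lay at 1.60, 1.38 and 1.32 times the trend, and Cslcs3 and Cslcs4 below it, at 0.784 and 0.745. The repeat libraries of a flask gave nearly the same value for Cslcs1, with a ratio of 0.984 to 1.05 over the 6 flasks. Its spread was thus seen between flasks and not between repeat libraries. Whether it arose in culture, RNA extraction or library preparation was not tested.

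**Figure D4:**
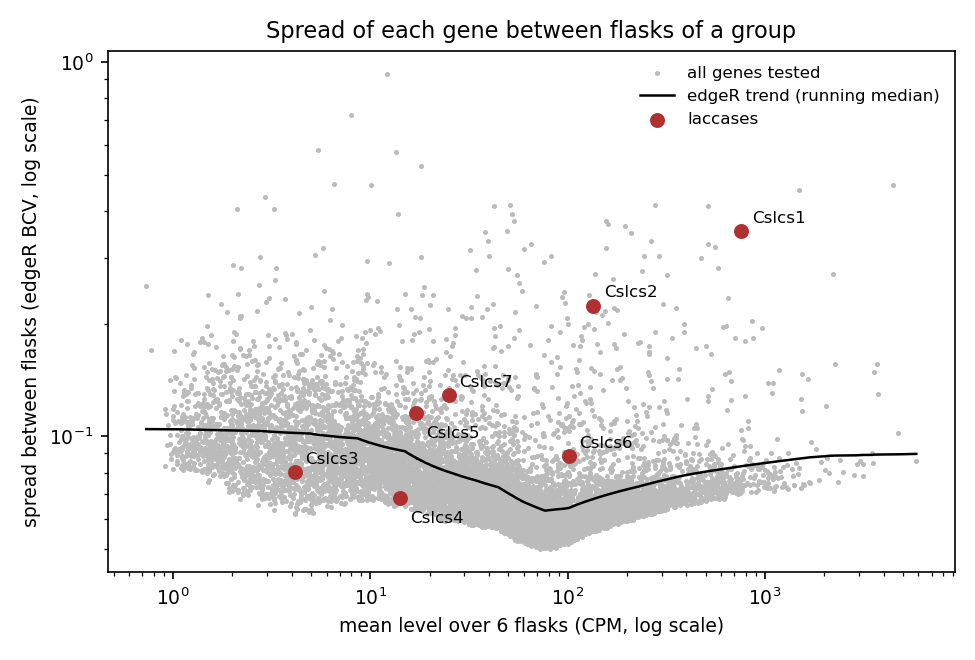
Grey points are all 10318 genes tested, with the mean level over 6 flasks in CPM against the BCV between flasks of a group, both on log axes. The black line is the running median of edgeR's trend and red points are the laccases. Cslcs1 at 0.354 and Cslcs2 at 0.224 lie far above the line, and Cslcs3 and Cslcs4 lie under it.

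Cslcs1 and Cslcs2 were both highest among the water flasks in replicate 1, while Cslcs2 fell with vanillate and Cslcs1 did not pass the test. The ratio of Cslcs1 to Cslcs2 counts within a flask does not depend on the scaling between flasks. It was 2.97, 2.28 and 2.34 in water replicates 1, 2 and 3 and 11.0, 14.4 and 14.0 in vanillate replicates 1, 2 and 3. The ratio had a CV of 15.1% with water and 14.3% with vanillate, and its mean was 2.53 ± 0.382 with water and 13.1 ± 1.88 with vanillate (SD, n = 3). Water replicate 1, without which Cslcs1 was called, thus had the highest ratio of the water flasks but lay far below every vanillate flask. It stood further above the other water flasks in the ratios of Cslcs1 to Cslcs3, Cslcs6 and Cslcs7, given below. As a description over 6 flasks that share each library and its depth, Pearson's r of the log2 levels was 0.97 for the deviations from the group means and -0.47 for the values themselves. The value of 0.97 was the highest for such deviations among all 21 pairs of laccases.

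**Figure D5:**
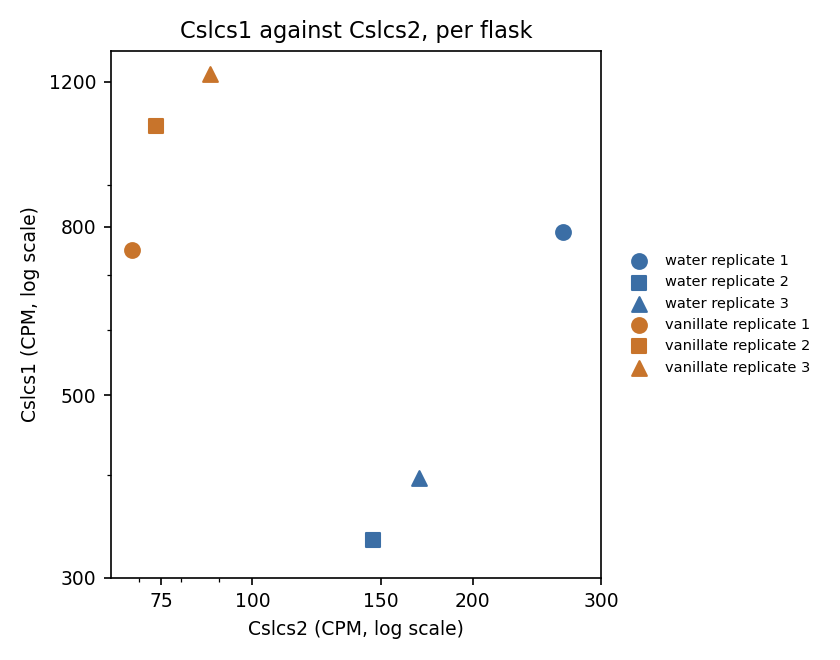
Each point is 1 flask, with the level of Cslcs2 in CPM on the horizontal and of Cslcs1 on the vertical axis, both log scales. Water (blue) and vanillate (orange) flasks form separate rising lines, and water replicate 1 has the highest Cslcs2, 265.5 CPM, beside a Cslcs1 level near that of vanillate replicate 1.

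Among all 21 pairs of laccases, the ratio within a flask did not overlap between the treatments in 14 pairs, or 66.7%, against 59.2% of all pairs of genes tested. The largest change in mean log2 ratio was that of Cslcs2 to Cslcs7, -2.52. It was 2.37 for Cslcs1 to Cslcs2 and -2.27 for Cslcs2 to Cslcs3, so a shift of this size was not particular to Cslcs1 and Cslcs2. The ratio of Cslcs1 to Cslcs6, at 7.79, 2.81 and 3.18 with water and 7.59, 11.7 and 16.2 with vanillate, did overlap, through water replicate 1. The ratio of Cslcs1 to Cslcs3 overlapped too, with means of 186.6 ± 102.8 and 185.8 ± 50.2, as did that of Cslcs1 to Cslcs7, with 35.2 ± 19.8 and 30.9 ± 14.7. In water replicates 1, 2 and 3 the ratio to Cslcs3 was 305.3, 125.7 and 128.8. That to Cslcs7 was 58.0, 23.4 and 24.1 in the same flasks. Over the 6 flasks the most alike members were Cslcs5 and Cslcs6, which both fell (r = 0.93), and the least alike were Cslcs1 and Cslcs6 (r = -0.94). Cslcs3 and Cslcs7, which both rose, had an r of 0.89. For the deviations from the group means r was -0.19 for Cslcs3 and Cslcs7. It was 0.79 for Cslcs5 and Cslcs6 and -0.84 for Cslcs1 and Cslcs6. These correlations are over 6 flasks in 2 groups and are given without a test.

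The genes whose log2 levels followed those of Cslcs1 most closely over the 6 flasks were searched among the 8960 genes that averaged 5 CPM or more. They were CERSUDRAFT_91691 (r = 0.998), CERSUDRAFT_119383 (0.990), CERSUDRAFT_126972 (0.989), CERSUDRAFT_131198 (0.989) and CERSUDRAFT_102170 (0.986), named by locus identifiers without a product. An r over 0.9 was reached by 2.89% of the genes searched. The fitted log2 fold changes of the named genes ran from 0.08 to 0.66, beside 1.00 (SE 0.43) for Cslcs1, and the differences were not tested. These genes were picked over the same 6 flasks, so r took in the difference between the groups. The direction of their changes was thus partly set by the choice, and their p-values are no separate evidence. CERSUDRAFT_126972 had 12.7, 8.52 and 8.74 CPM with water and 13.2, 16.8 and 16.7 CPM with vanillate (log2 fold change 0.66, SE 0.16, adjusted p = 0.00388). CERSUDRAFT_131198 rose by 0.22 on the log2 scale (adjusted p = 0.0184), a call lost under 5 of 13 alternatives, and the other 3 did not pass, at 0.34, 0.13 and 0.08.

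The other multicopper oxidases with a symbol are Csfet3 and Csmco1. Fet3 is, in yeast, the ferroxidase that oxidises iron at the cell surface for uptake. Csfet3 was at 170.4, 156.5 and 197.8 CPM with water and 214.3, 223.3 and 212.0 CPM with vanillate, without overlap (log2 fold change 0.31, SE 0.08, adjusted p = 0.00526). With library totals in place of TMM its adjusted p was 0.0552. Csmco1, by its symbol a multicopper oxidase, was at 3.49, 1.99 and 3.18 CPM with water and 3.61, 4.17 and 4.49 CPM with vanillate. Its log2 fold change was 0.52 (SE 0.23) and it was not called, with an adjusted p of 0.0751, or 0.0413 without water replicate 1. No symbol matched the list of genes for copper uptake and delivery, so such genes were not analysed here.

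Of the 24 peroxidases tested out of 25 with a symbol of the class II or heme-thiolate families, which white-rot fungi also secrete, 3 rose and 11 fell, where 25.5% of all genes were called higher and 25.9% lower. Their median log2 fold change was -0.04 and the range was -2.23 to 0.57. The largest rise among the laccases, 1.24, was thus above every value in that list.

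In T. versicolor, 1 of 7 laccases was called higher and none lower, where 20.1% of 11032 genes were higher and 18.5% lower. With no call among the lower ones, 1 laccase had an unadjusted p under 0.05 in that direction, TvLac2 at 0.0498, and DESeq2 also called 0. TvLac7 rose from 2.35, 2.60 and 3.25 CPM to 36.4, 21.4 and 39.2 CPM (log2 fold change 3.60, SE 0.26). The laccase with the most counts there, TvLac1, varied widely as well, with a CV of 46.1% with water and 45.2% with vanillate. It stood at 148.2, 253.0 and 391.2 CPM with water and 97.6, 145.6 and 241.0 CPM with vanillate, and was not called (log2 fold change -0.69, SE 0.48, adjusted p = 0.322). Equivalent laccases of the 2 fungi are not known from the files, and the difference between the fungi was not tested.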

How the data were processed

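RNA was measured in 24 libraries, 12 per fungus, sequenced as single reads of 150 bases after a strand-keeping library preparation from total RNA, per the labels' protocols. The authors deposited raw read counts per gene for each library, with no normalization. FastQC, STAR and HTSeq are named in the submitters' processing notes. Versions, genome build and annotation were not given in the sources used here, nor were counting options. Lines of reads assigned to no gene were kept out of library sizes.

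From these counts, the 2 libraries with the same treatment and replicate number were summed to 1 flask, giving 3 flasks per group. Each fungus was fitted alone with edgeR 4.0.16 in R 4.3.3: filterByExpr (minimum count 10, minimum total 15), TMM scaling, and the quasi-likelihood F test with robust estimation. CPM uses the same scaling. Log2 levels for correlations used a prior count of 2, and ratios between genes for the overlap count added 0.5 to each count. The fit was tried on data simulated with the same spread beyond counting error for every gene. It recovered 100% of the genes set to change 2-fold or 4-fold, and 6.98% of its calls were false. Only a small part of the genes was set to change, as many up as down and none with few counts. In the real data 51.4% of the genes tested were called. Scaling under so many changes and genes with few counts are therefore not covered by this simulation. Nor are genes as variable as Cslcs1 and Cslcs2. Alternatives were library totals, DESeq2 size factors, no filter, the Wald test of DESeq2 1.42.0, a replicate block, leaving out each flask, and either library alone. Named genes were all Cslcs genes, the other multicopper oxidases with a symbol, the 5 genes most correlated with the laccase of the highest mean CPM, and in T. versicolor the laccase with the highest mean and any called at 2-fold or more. The members and lists were chosen with earlier results of these data known. No genome, gene lengths or sequences were used.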

Additional observations from a re-analysis of the deposited data

How the results depend on the processing

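The laccase calls, 2 higher and 3 lower, were the same in number under library totals, DESeq2 size factors, no filter, the DESeq2 Wald test and either library alone. With 1 flask left out, 2 to 3 were higher (3 without water replicate 1, which adds Cslcs1) and 2 to 3 lower (2 without vanillate replicate 2, which loses Cslcs2). Over all genes of G. subvermispora, library totals gave 1788 higher and 3812 lower against 2629 and 2675, and moved the median log2 fold change from -0.01 to -0.14. The share of Cslcs1 in laccase counts was 52.1% to 59.3% with water and 78.7% to 83.3% with vanillate on leaving out a flask or using either library alone. Over these and the other scalings, the summed family level was 695.1 to 964.6 and 1153 to 1386 CPM. Shares per coding length were not run, as no lengths were used.

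Flasks with the same replicate number did not deviate together (r = -0.03, 0.03 and -0.14 for numbers 1, 2 and 3 of G. subvermispora), and the flasks share only a number. With a replicate block 2 laccases were higher and 3 lower, and the adjusted p was 0.0399 for Cslcs2 and 0.0457 for Cslcs6. In T. versicolor the r for numbers 1, 2 and 3 was -0.006, 0.096 and -0.041. The block there gave 1 laccase as lower, TvLac1, against 0. Its log2 fold change was then -0.70 (SE 0.094) with an adjusted p of 7.6e-06, against 0.322 (SE 0.48) without the block. Leaving out a flask gave 0 to 1, with 1 without water replicate 2, there TvLac2 (log2 fold change -0.59, adjusted p = 0.0271).

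The sign turned for 2 values that were never called: Cslcs4 with the first library alone (0.025) and CERSUDRAFT_102170 with library totals (-0.050). The cause was not tested. Depth limits Cslcs3 most, at 23 to 57 counts per flask. Leaving out a flask leaves 2 in its group.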
